A study of Mus musculus with 2 samples.

Results

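The 9 protein-coding genes described here, *Kbtbd11*, *Crybb1*, *Zdhhc21*, *Mbnl1*, *Fpgs*, *Adipoq*, *Slc24a2*, *Znrf3* and *Nfia*, lie at tall Gata3 ChIP-seq peaks of mouse TH2 cells. They are 9 of 21938 protein-coding genes of GENCODE M21 on chromosomes 1 to 19, X and Y. The genes were chosen by the height of Gata3 peaks in these same libraries, so the heights below are a description and were not tested. For each gene the region was the gene body plus 50 kb either side, and 250 kb either side for *Slc24a2*, whose peak lies far from the gene.

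Gata3 was measured in 2 libraries, numbered 1 and 2 in the labels, of the same condition. The labels describe the cells as TH2 subsets of mouse spleen, grown in culture. They give no strain, genotype, sex or age, and the study's methods describe naïve CD4+ T cells activated with anti-CD3 and anti-CD28 in IL-2, IL-4 and an anti-IFN-γ antibody. The chromatin protocol in the labels names ILC2, a related innate lymphocyte, where every other field names TH2 cells. Nothing states whether the libraries came from separate mice or cultures, so their spread may be technical. There was no second condition, no input and no IgG library in the data used here, and each peak was read against the read density of its own library.

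Gata3 is the transcription factor that directs CD4+ T cells towards the TH2 fate and the cytokines IL-4, IL-5 and IL-13. It binds DNA through zinc fingers that recognise a GATA core, at promoters as well as at sites far from any gene. A binding site can act on the gene that holds it, on a neighbour or on no gene, and ChIP-seq gives the position only. Expression was not analysed here, so which genes respond to these sites was not tested.

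Library 1 held 40526613 reads and library 2 held 24970952, and 23806 peaks were called in both (shared peaks). Of the loci expected to be active in TH2 cells, 6 of 7 contained a shared peak, counted over the gene with 2 kb added, *Il4*, *Il5*, *Il13* and *Gata3* among them, while *Ccr4* held none. Of 4 general T cell loci 3 did, of 4 B cell loci 0 did, of 4 myeloid loci 2 did, and of 3 erythroid or mast cell loci 1 did, where 35.0% of all protein-coding genes contained one. The T cell receptor delta segments that are cut out when the alpha chain is rearranged held 7 and 4 reads, where the library means would give 347 and 214.

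The name of the group held for 7 of the 9 genes. Ranked by the lower of both libraries, in reads scaled to library size (RPM), with ties sharing a rank, their tallest peaks stood between rank 2 (*Kbtbd11*) and rank 10 (*Slc24a2*). *Znrf3* stood at rank 213 and *Nfia* at rank 842. The heights near the top were close together. The summit at *Slc24a2*, with 219 and 181 reads, shared rank 10 with one at *Stk40* (219 and 167 reads), and the next, at *Tcf3*, held 218 and 157. The TH2 cytokine gene *Il13* shared rank 7 with *Fpgs* and *Adipoq*. Duplicate reads had been removed, so that a 200-bp window could hold at most 400 reads, and how far this limited the tallest peaks was not tested.

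The sequence at a summit was not used to choose the genes. The 200 bases around the summit in library 1 are shown for 6 genes, on the plus strand of GRCm38 (from the RefSeq copy of that build), because these windows differ in their GATA matches. Capitals mark matches to the GATA sequence (A or T, then GATA, then A or G, on either strand) and to the AP-1 sequence (TGACTCA or TGAGTCA). The windows are chr8:15014401-15014600 for *Kbtbd11*, chr5:112264151-112264350 for *Crybb1*, chr2:32694151-32694350 for *Fpgs*, chr16:23175051-23175250 for *Adipoq*, chr4:87434351-87434550 for *Slc24a2* and chr4:98119801-98120000 for *Nfia*.
Kbtbd11: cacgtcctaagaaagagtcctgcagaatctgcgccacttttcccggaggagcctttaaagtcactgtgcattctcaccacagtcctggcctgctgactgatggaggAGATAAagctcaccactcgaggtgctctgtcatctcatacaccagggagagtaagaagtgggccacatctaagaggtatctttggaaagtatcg
Crybb1: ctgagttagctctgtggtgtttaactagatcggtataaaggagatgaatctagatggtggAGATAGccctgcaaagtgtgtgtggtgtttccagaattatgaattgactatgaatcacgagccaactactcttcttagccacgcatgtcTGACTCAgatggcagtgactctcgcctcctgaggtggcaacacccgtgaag
Fpgs: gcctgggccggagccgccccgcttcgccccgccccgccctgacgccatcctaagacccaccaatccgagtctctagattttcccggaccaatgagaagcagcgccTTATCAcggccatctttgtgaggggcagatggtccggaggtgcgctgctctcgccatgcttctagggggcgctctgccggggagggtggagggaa
Adipoq: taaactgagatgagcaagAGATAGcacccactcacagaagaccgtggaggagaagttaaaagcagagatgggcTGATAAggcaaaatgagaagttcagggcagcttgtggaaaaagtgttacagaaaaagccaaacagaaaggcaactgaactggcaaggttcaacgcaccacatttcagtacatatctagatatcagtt
Slc24a2: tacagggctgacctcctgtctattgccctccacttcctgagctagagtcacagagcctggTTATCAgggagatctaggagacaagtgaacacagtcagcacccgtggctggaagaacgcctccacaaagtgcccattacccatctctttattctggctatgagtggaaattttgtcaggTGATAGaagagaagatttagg
Nfia: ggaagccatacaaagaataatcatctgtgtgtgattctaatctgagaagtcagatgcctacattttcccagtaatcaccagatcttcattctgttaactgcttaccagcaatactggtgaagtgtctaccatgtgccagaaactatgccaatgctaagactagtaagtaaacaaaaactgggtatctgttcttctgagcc

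GATA matches lay within 100 bp of 8 of the 9 tallest summits, where 70.9% of all 23806 shared summits and 83 of the 100 shared peaks at places 11 to 110 in the order of height had one, so the count is close to the background. *Adipoq* and *Slc24a2* each held 2 matches, as 25.8% of all shared summits held 2 or more. *Kbtbd11* held its match (AGATAA) with its centre 9 bp after the summit, and *Fpgs* held its match, written TTATCA on the plus strand because it reads as GATA on the minus strand, 8 bp after it. The matches at the other 6 genes with one lay between 79 bp before and 82 bp after the summit. *Nfia* was the exception, with no match in the window printed above. The same letters in reverse order, a check of base composition, occurred at 2 of the 9 tallest summits and at 32.8% of all shared summits.

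Partner factors of T cells gave fewer matches. The AP-1 sequence, bound by Fos and Jun proteins that are induced by T cell receptor signals, lay at 1 of the 9 tallest summits, *Crybb1*, 52 bp after the summit. It lay at 12.3% of all shared summits and at 37 of those 100. The RUNX sequence (TGTGGT or TGCGGT) lay at 3 of the 9, *Kbtbd11*, *Crybb1* and *Adipoq*, against 18.5% of all shared summits and 25 of the 100, and *Crybb1* held it at 2 positions. The ETS sequence (A or C, then GGAA, then A or G) lay at 2 of the 9, *Mbnl1* and *Slc24a2*, against 46.1% and 56 of the 100. The STAT sequence (TTC and GAA with NNN or NNNN between them) lay at 0 of the 9, against 3088 of the 23806 shared summits and 16 of the 100. A match is a string of letters, and no factor apart from Gata3 was assayed. Without an input or IgG library, reads from Gata3 binding cannot be told apart from background reads at these summits.

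**Figure D1:**
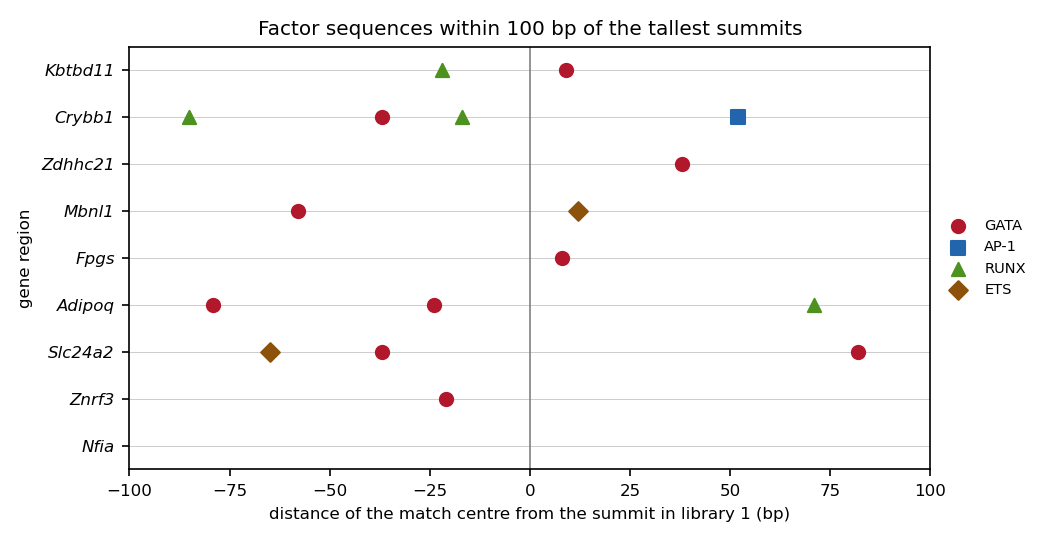
Positions of factor sequences around the tallest summit of each gene region. The horizontal axis is the distance in bp of the centre of a match from the summit in library 1, each row is a gene region, and the symbol gives the factor; GATA circles appear in every row apart from *Nfia*, and the AP-1 square appears in the *Crybb1* row alone.

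By the lower of both libraries, the shared peak at rank 2 of the genome lay in *Kbtbd11* (chr8:15011025-15033333, plus strand). This gene encodes a Kelch and BTB domain protein, a family with many adaptors of ubiquitin ligases. Its summit at chr8:15014500 held 231 reads in library 1 (5.70 RPM, 95% interval 4.99 to 6.49) and 150 reads in library 2 (6.01 RPM, 5.09 to 7.05). Here and below the intervals are exact Poisson intervals and cover counting error only. The libraries overlapped. The summit was in intron 1, 3195 bp downstream of the nearest start site of the gene.

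*Kbtbd11* held a further peak in the same intron, 7945 bp from the start site, with 119 and 60 reads (rank 1472). The region held 4 shared peaks, and 13.9% of the 16635 genes with a region of similar length (within 20%) held as many or more. The other genes within 100 kb were *Arhgef10*, *BB014433* and the sarcomere gene *Myom2*. *Arhgef10* had a shared promoter peak of its own, with 41 and 25 reads (rank 8194), 1592 bp from the start of a noncoding transcript that begins 78696 bp inside the gene model. The tall peak was thus nearest to, and inside, *Kbtbd11*, and *Arhgef10* was the neighbour with a further peak at a start site.

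*Crybb1* (chr5:112255815-112269585, plus strand) encodes a beta crystallin, a structural protein of the eye lens. Its peak, at rank 3, had its summit at chr5:112264250 with 230 reads in library 1 (5.68 RPM, 4.97 to 6.46) and 185 reads in library 2 (7.41 RPM, 6.38 to 8.56). Library 2 was higher by 1.31 times, with an interval of 1.07 to 1.59. The summit lay in intron 4, 8377 bp downstream of the nearest start site of *Crybb1* and 11733 bp upstream of another crystallin gene, *Cryba4*.

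The gene next to *Crybb1* on the other side was *Tpst2*, a sulfotransferase that modifies tyrosines of secreted and membrane proteins. The tall summit lay 12440 bp upstream of the first start site of *Tpst2*. A peak inside *Tpst2*, 1661 bp upstream of an alternative start that leads to a protein-coding transcript, held 142 and 78 reads (rank 685). Between *Crybb1* and *Tpst2* lay another peak, 4840 bp upstream of *Tpst2*, with 132 and 78 reads and the same rank. *Tfip11*, which takes part in spliceosome turnover, had a promoter peak of 107 and 58 reads (rank 1591), 1557 bp from its start site. The tallest peak was therefore followed by 3 lesser peaks, each nearest to *Tpst2* or *Tfip11*, and *Crybb1* and *Cryba4* had no peak within 2 kb of a start site. The region of *Crybb1* held 3 shared peaks, and 25.3% of the 15374 genes of similar length held as many.

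*Zdhhc21* (chr4:82798738-82859958, minus strand) encodes a palmitoyltransferase, an enzyme that attaches fatty acids to proteins. Its summit at chr4:82850850 held 225 reads in library 1 (5.55 RPM, 4.85 to 6.33), and at chr4:82850900 it held 188 reads in library 2 (7.53 RPM, 6.49 to 8.69). The height in library 2 was 1.36 times that in library 1 (1.11 to 1.65). The summit lay 37 bp upstream of the start site of an inner protein-coding transcript, which is 9144 bp inside the start of the gene model. It was in intron 2 of the transcript with the most exons. The region held 2 shared peaks, and the other one, 8797 bp from *Cer1*, held 49 and 22 reads (rank 10040).

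The reads at *Zdhhc21* also rose to 2.59 RPM in library 1 and 2.68 RPM in library 2 at 1800 bp before the summit, higher than this other shared peak, without a shared peak being called there. *Cer1*, a secreted antagonist of developmental signals, and *Frem1*, an extracellular matrix gene, were the other genes within 100 kb, and neither had a shared promoter peak. At this peak the inner start site of *Zdhhc21* was thus the nearest by far, with *Cer1* at 34297 bp.

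*Mbnl1* (chr3:60472830-60629750, plus strand) encodes an RNA-binding regulator of splicing. At its tallest summit, chr3:60601900, library 1 held 225 reads (5.55 RPM, 4.85 to 6.33) and library 2 held 161 reads (6.45 RPM, 5.49 to 7.53). It lay in intron 3, 129071 bp into the gene and 1637 bp upstream of the start of a retained-intron transcript. A second peak stood 87 bp from that same start, with 130 and 117 reads (rank 619), and held AP-1 and RUNX matches but no GATA match. *Mbnl1* was the only protein-coding gene with a start site within 100 kb of the tallest summit, and the next on either side, the ADP receptor gene *P2ry1* and the succinate receptor gene *Sucnr1*, lay 400894 bp and 519999 bp away.

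*Mbnl1* also held many lower peaks. Its region held 14 shared peaks, 9 in the gene body (6 in introns 1 and 2 and 3 towards the 3′ end) and 5 outside it, where the median of the 1382 genes with regions of similar length was 3 and 1.16% held as many. One of the 14 lay 329 bp before the start of the gene model, with 80 and 48 reads (rank 2540). Another, in intron 1, held 7 GATA matches within 100 bp of its summit at chr3:60522450 and reached 82 and 42 reads (rank 3314). Masked repeats made up 35.5% of that window, against 0% at the tallest summit and a median of 10% over all shared summits. The tallest summit had 1 GATA match, and whether the 7 matches lie in repeat sequence was not tested.

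*Fpgs* (chr2:32682609-32704145, minus strand) encodes folylpolyglutamate synthase, which adds glutamates to folates and so keeps them in the cell. The summit at chr2:32694250 held 220 reads in library 1 (5.43 RPM, 4.74 to 6.20), and the summit at chr2:32694300 held 138 reads in library 2 (5.53 RPM, 4.65 to 6.53), so the libraries were alike in height (ratio 1.02, 0.82 to 1.27). The summit lay 66 bp upstream of the start site of a protein-coding transcript, itself 9960 bp inside the start of the gene model. The bases around it were 66% G or C, more than at 99.4% of the shared summits.

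The ring from 1 to 5 kb around the *Fpgs* summit held the fewest reads of the 9, 3.93 and 3.28 per window, above the library means of 2.97 and 1.83, and the summit stood 56.1-fold and 42.1-fold above it, more than any other of the 9. Within 100 kb there were 11 other genes. *Sh2d3c*, an SH2 domain adaptor of lymphocytes and other cells, had a promoter peak of 109 and 70 reads (rank 1096), 1246 bp from its start site, and this was the other shared peak of the *Fpgs* region. *St6galnac4*, a sialyltransferase gene, had one of 46 and 16 reads (rank 16066). *Cdk9*, the kinase of the elongation factor P-TEFb, and *Eng*, which encodes endoglin, had none although they lay nearer, at 15470 bp and 20885 bp.

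*Adipoq* (chr16:23146536-23158028, plus strand) encodes adiponectin, a hormone of fat cells. Its tallest peak was outside the gene, with the summit at chr16:23175150, 28505 bp beyond the start site and past the 3′ end. Library 1 held 220 reads there (5.43 RPM, 4.74 to 6.20) and library 2 held 147 reads (5.89 RPM, 4.98 to 6.92). No shared peak lay in the body of *Adipoq*, and none within 2 kb of its start sites. When noncoding genes were counted as well, the nearest start site was that of *B630019A10Rik*, an antisense RNA gene that begins 129 bp from the summit.

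*Adipoq* thus was the protein-coding gene with the nearest start, and 2 genes further away had promoter peaks of their own. *Rfc4*, a subunit of the clamp loader of DNA replication, lay 47414 bp from the tall summit and had a promoter peak of 57 and 16 reads (rank 16066), 614 bp from its start. *St6gal1*, a sialyltransferase that modifies surface glycoproteins, began 49589 bp away on the other side. Its body held 4 shared peaks, which were not set against genes of similar length. One of them, with 41 and 34 reads (rank 8108), lay 122 bp from an inner start that leads to a protein-coding transcript. The remaining shared peak of the *Adipoq* region, 34955 bp beyond its start site, held 61 and 36 reads (rank 4425).

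*Slc24a2* (chr4:86983124-87230477, minus strand) encodes an exchanger of sodium for calcium and potassium that is best known from neurons and cone photoreceptors. The tall summit lay at chr4:87434450 in library 1, with 219 reads (5.41 RPM, 4.71 to 6.17), and at chr4:87434400 in library 2, with 181 reads (7.25 RPM, 6.23 to 8.39). The height in library 2 was 1.34 times that in library 1 (1.10 to 1.64). The summit lay 203974 bp upstream of the nearest start site of *Slc24a2*, and no protein-coding gene began within 100 kb. A predicted miRNA gene, *Gm23154*, began 2179 bp away.

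The other candidate near the *Slc24a2* peak was *Mllt3*, which encodes a chromatin reader of the machinery of transcription elongation. Its nearest start site was 371843 bp away on the other side of the summit. *Mllt3* had a shared promoter peak of 99 and 57 reads (rank 1684), not at that start but at the start of its gene model, 598913 bp from the tall summit, and 12 shared peaks in its body, whereas *Slc24a2* had no promoter peak and 1 peak in its body, of 46 and 20 reads (rank 11590). *Acer2*, which encodes a ceramidase, lay beyond *Slc24a2* at 503760 bp and had 2 shared peaks in its body but none at a start site. These counts in gene bodies were not set against genes of similar length. The 747-kb region held 12 shared peaks. With 50 kb either side, which leaves out the tall peak, it held 2. Of the 631 genes of similar length, 65.9% held as many or more.

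*Znrf3* (chr11:5276324-5444847, minus strand) encodes a ubiquitin ligase of the membrane that lowers the level of Wnt receptors. Its tallest summit, chr11:5295950 in library 1 and chr11:5295900 in library 2, held 161 reads (3.97 RPM, 3.38 to 4.64) and 104 reads (4.17 RPM, 3.40 to 5.05). It was in intron 2, towards the 3′ end of the gene. The nearest start site was not that of *Znrf3*, 85789 bp away, but that of *Kremen1*, 34393 bp away, which encodes another inhibitor of Wnt signals. Neither gene had a shared peak within 2 kb of a start site.

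Peaks also lined the body of *Znrf3*. Its region held 10 shared peaks, 8 of them in the gene, and 6.21% of the 1207 genes of similar length held as many, with a median of 3. The second tallest, in the same intron as the first, held 97 and 60 reads (rank 1502). In intron 1 there were 5 peaks, from 32 and 16 to 78 and 46 reads. *Kremen1* held no shared peak in its body.

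*Nfia* (chr4:97772734-98118874, plus strand) encodes nuclear factor I A, a DNA-binding factor known for its part in the formation of glia. Its tallest summit, chr4:98119900 in library 1 and chr4:98119850 in library 2, held 120 reads (2.96 RPM, 2.46 to 3.54) and 84 reads (3.37 RPM, 2.68 to 4.17). It lay just past the end of the gene, which is at chr4:98118874, and 208868 bp from the nearest start site of a protein-coding gene, an inner start of *Nfia* that leads to a noncoding transcript. By gene-model starts *Tm2d1*, at 263405 bp, was nearer than *Nfia*, at 347167 bp, and with noncoding genes counted the pseudogene *Gm12691* was nearest, at 26698 bp. A second peak over the last exon held 88 and 62 reads (rank 1890). The tallest peak did not stand out in this region, since the next, in intron 2, reached 0.908 of its height, with 109 and 71 reads.

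*Nfia* resembled *Mbnl1* in the number of peaks, with 14 in its region, 12 of them in the gene body, where 5.76% of the 417 genes of similar length held as many. A weak peak of 44 and 17 reads (rank 14738) lay 533 bp before the start of the gene model, inside *E130114P18Rik*, a gene of the opposite strand. The next protein-coding genes, *Tm2d1* and the polarity scaffold gene *Patj*, began 255127 bp and 275884 bp away and each had a weak promoter peak, of 22 and 17 reads (rank 19426) and of 27 and 14 reads (rank 18724).

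**Figure D2:**
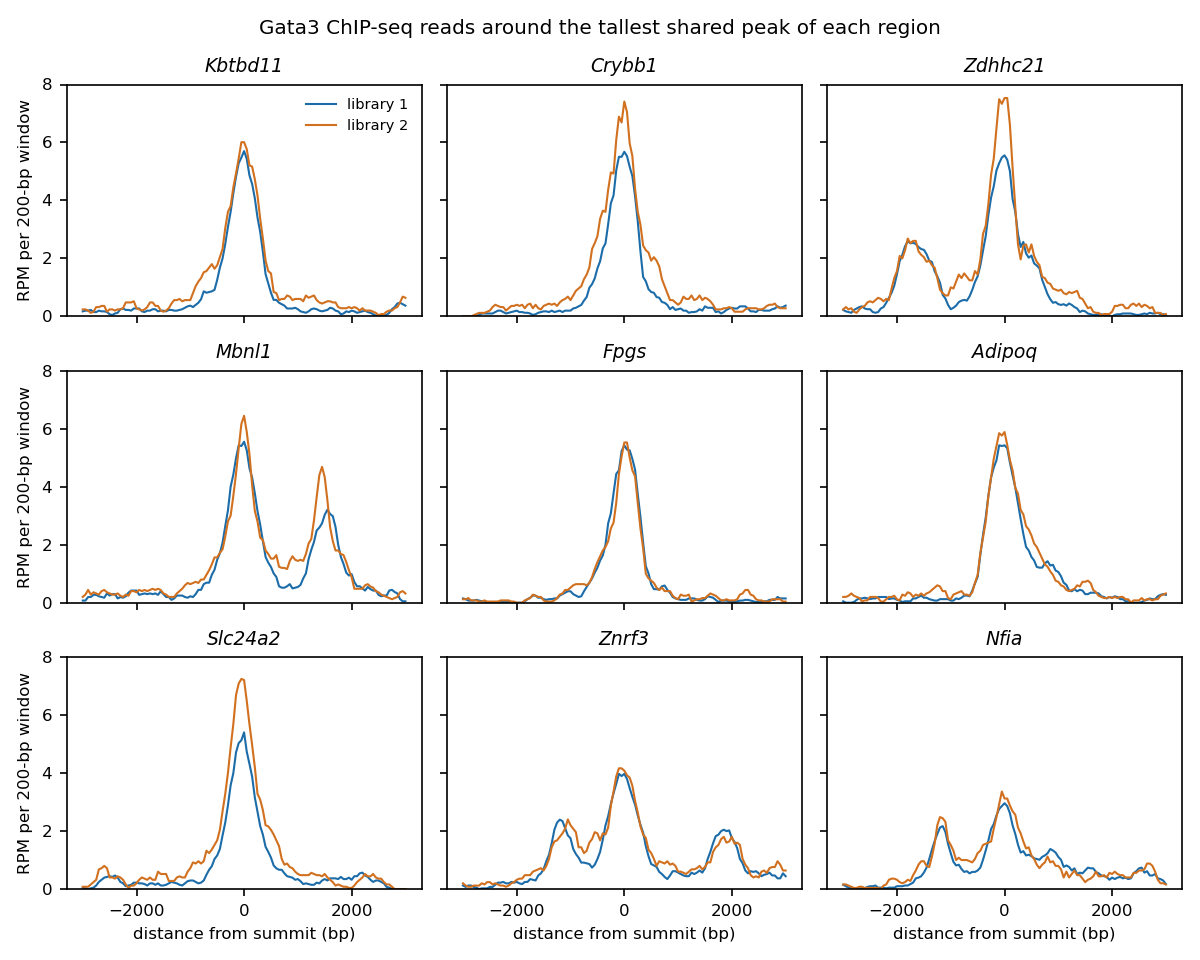
Reads around the tallest shared peak of each gene region. The horizontal axis is the distance in bp from the summit in library 1, the vertical axis is RPM per 200-bp window, and the lines are library 1 (blue) and library 2 (orange). The summits at *Crybb1*, *Zdhhc21* and *Slc24a2* rise to 7.41, 7.53 and 7.25 RPM in library 2. Lower neighbouring peaks appear beside those of *Mbnl1*, *Znrf3* and *Nfia*. Rises that were not called as shared peaks appear beside those of *Zdhhc21* and *Znrf3*.

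Across the 9 genes, the summit heights were between 2.96 and 5.70 RPM in library 1 and between 3.37 and 7.53 RPM in library 2, where the medians of all shared peaks were 0.988 and 0.881 RPM. The order of the first 7 genes changed between the libraries. *Kbtbd11* was the highest in library 1 and *Zdhhc21* in library 2, and in each library the intervals of these 7 overlapped throughout. *Znrf3* and *Nfia* lay below the other 7 in both libraries. The ratio of library 2 to library 1 lay between 1.02 (*Fpgs*) and 1.36 (*Zdhhc21*), against a median of 1.07 over the 1000 tallest shared peaks, with 0.861 and 1.37 as their 5th and 95th percentiles, so that all 9 ratios lay inside this range. Over all shared peaks the median ratio was 0.947, with 0.595 and 1.59 as the 5th and 95th percentiles. At each of the 9 summits the lower library, used for the ranks, was library 1. The libraries differed in depth and in sequencing instrument. The parts of depth, instrument and duplicate removal in the ratios were not tested.

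**Figure D3:**
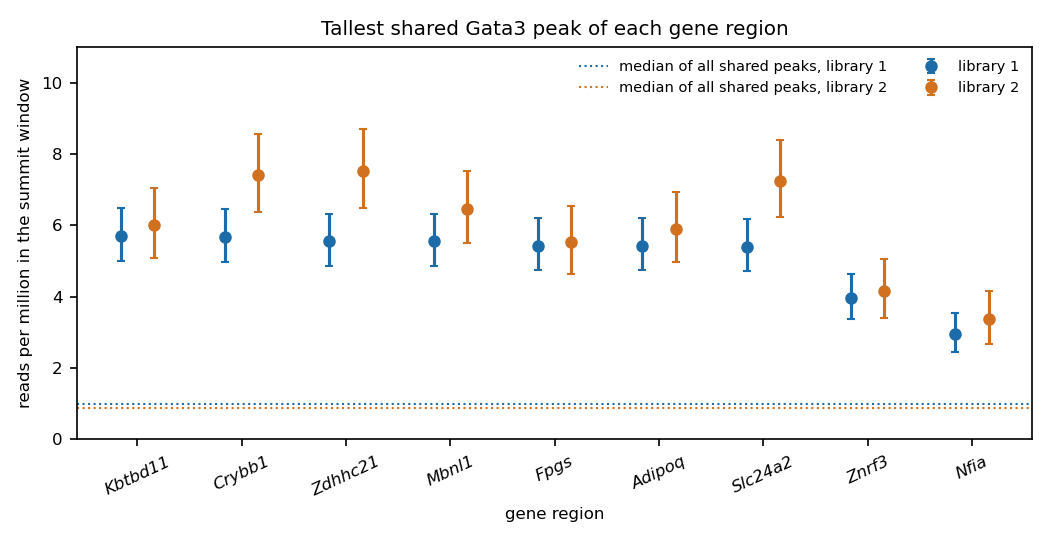
Height of the tallest shared peak in each gene region. The vertical axis is RPM in the 200-bp summit window, points are library 1 (blue) and library 2 (orange), bars are 95% exact Poisson intervals for counting error, and dotted lines are the medians of all shared peaks; each point lies above both lines, and *Znrf3* and *Nfia* lie below the other 7 genes.

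The 7 tallest of these peaks were called over 950 to 1100 bp, and those of *Znrf3* and *Nfia* over 850 and 700 bp, where the median of all shared peaks was 600 bp. In library 1 the span with more than 50% of the summit height was between 500 and 650 bp, and in library 2 between 350 and 650 bp. Reads of the plus strand made up 46% to 56.5% of the summit reads. At least 97.8% of the summit reads had the highest mapping quality score of 44, and of 63 stretches of 50 bases taken from the 9 windows 0 had another exact copy in the genome. The summit windows were free of masked repeats at 7 of the 9 genes.

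Height and enrichment over the local background gave different orders. The local background, the highest of the library mean and the means over 5 kb and 10 kb, includes the reads of the peak itself, and over it the tallest peaks stood between 3.08-fold (*Znrf3*, library 2) and 6.66-fold (*Fpgs*, library 2). By the lower fold of both libraries, *Fpgs* ranked 755 of the shared peaks, *Slc24a2* 3487, *Adipoq* 5532, *Zdhhc21* 13814, *Nfia* 21544 and *Znrf3* 22264, the last of the 9. In the ring from 1 to 5 kb, which leaves the tallest peak out, the folds in library 1 were between 8.70 (*Znrf3*) and 56.1 (*Fpgs*). Other peaks can lie in the ring, as at *Znrf3*, *Nfia* and *Mbnl1*, and their reads count towards its mean. Their part in the order of these folds was not tested. A 5-fold minimum over the local background left 4 of the 9 tallest peaks, those of *Crybb1*, *Fpgs*, *Adipoq* and *Slc24a2*.

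The 9 regions held 64 shared peaks, 35 in gene bodies and 29 outside. Each region held at least 1, as the choice of the genes requires, and 71.2% of all protein-coding genes had a shared peak in such a region. The 55 peaks other than the tallest had a median rank of 8194. Of these 55, 33 had a GATA match and 6 an AP-1 match, where 70.9% and 12.3% of all shared summits did. At *Adipoq* and *Kbtbd11* the next shared peak reached 0.266 and 0.422 of the height of the tallest. At *Zdhhc21* it reached 0.159, but the rise at 1800 bp reached 0.467 of the summit in library 1 and 0.356 in library 2. That rise was not called as a shared peak. At *Nfia*, *Znrf3* and *Mbnl1*, the genes with the most peaks in their bodies, the next peak reached 0.908, 0.602 and 0.578 of it.

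**Figure D4:**
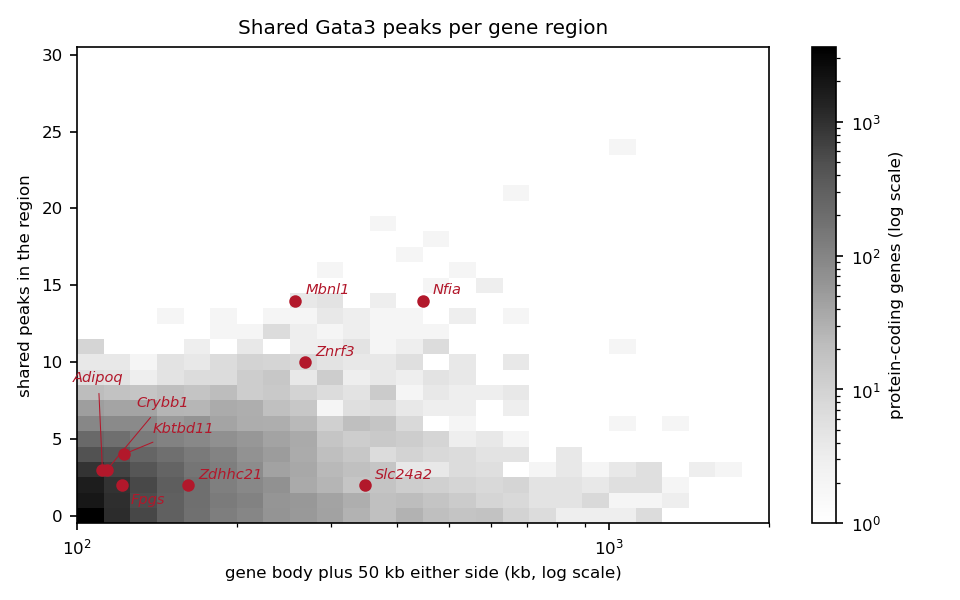
Shared Gata3 peaks per gene region against region length. With 50 kb either side of every gene, the tall peak of *Slc24a2* is not counted. The horizontal axis is the length of the gene body plus 50 kb either side in kb on a log scale, the vertical axis is the number of shared peaks, grey shades count protein-coding genes on a log scale, and red points are the 9 genes; *Mbnl1* and *Nfia* reach 14 peaks and *Znrf3* 10, and the other 6 genes have at most 4.

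Of the 9 genes, 4 had a shared peak within 2 kb of an annotated start site (*Zdhhc21*, *Mbnl1*, *Fpgs* and *Nfia*), where 17.2% of all protein-coding genes did. The genes were chosen by peaks near them, so nothing is read from this difference. At *Zdhhc21* and *Fpgs* the tallest peak was itself this promoter peak, at an inner start of the gene. *Mbnl1* had 3 promoter peaks, at 329 bp from its outer start, at 87 bp from an inner start and, the tallest, at 1637 bp from that inner start, which a promoter of 1 kb leaves out. At *Nfia* the promoter peak was the weak one at the outer start. A 5-fold minimum over the local background, which includes the reads of the peak itself, left 1 of the 4, *Fpgs*.

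Around the tallest summits, 8 of the 9 named genes had the nearest start site of a protein-coding gene, noncoding transcripts of these genes included, the exception being *Znrf3*, and 5 held the summit in an intron with their own start nearest (*Kbtbd11*, *Crybb1*, *Zdhhc21*, *Mbnl1* and *Fpgs*). With gene-model starts alone 7 of the 9 were nearest, and with noncoding genes counted too 5 were. Within 100 kb of the summits lay the start sites of 26 other protein-coding genes, and 7 of them had a shared promoter peak of their own (*Arhgef10*, *Tpst2*, *Tfip11*, *Sh2d3c*, *St6galnac4*, *Rfc4* and *St6gal1*), beside 17.2% of all protein-coding genes. The neighbours were taken from around tall peaks, so nothing is read from this difference. The highest were those of *Tpst2*, *Sh2d3c* and *Tfip11*. With promoters of 1 kb either side, 2 of the 7 were left, *Rfc4* and *St6gal1*, the other 5 peaks being more than 1 kb from a start.

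By position alone, the candidate targets differed between the genes. At *Zdhhc21* and *Fpgs* the summit was within 100 bp of an inner start site of the gene. At *Kbtbd11* and *Mbnl1* it was in an intron within 5 kb of the start of a noncoding transcript of the gene. The gene model of *Kbtbd11* begins 3476 bp from the summit. That of *Mbnl1* begins 129071 bp from it, and the near start there is an inner one of a retained-intron transcript. At *Crybb1*, *Adipoq* and *Znrf3* the summit was more than 8 kb from a start of the gene, and neighbours began within 50 kb of it, *Tpst2* and *Cryba4* at *Crybb1*, *Rfc4* and *St6gal1* at *Adipoq* and *Kremen1* at *Znrf3*. Start sites of neighbours also lay within 50 kb at *Kbtbd11*, *Zdhhc21* and *Fpgs*, and of these *Arhgef10* and *Sh2d3c* had promoter peaks of their own. The peak of *Sh2d3c* was at the start of its gene model. That of *Arhgef10*, whose gene model begins 102838 bp from the summit, was at an inner start of a noncoding transcript. At *Slc24a2* and *Nfia* no start site of a protein-coding gene lay within 200 kb, and the summit lay between *Slc24a2* and *Mllt3* or at the 3′ end of *Nfia*. Which of these genes, if any, Gata3 acts on through these sites was not tested.

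**Figure D5:**
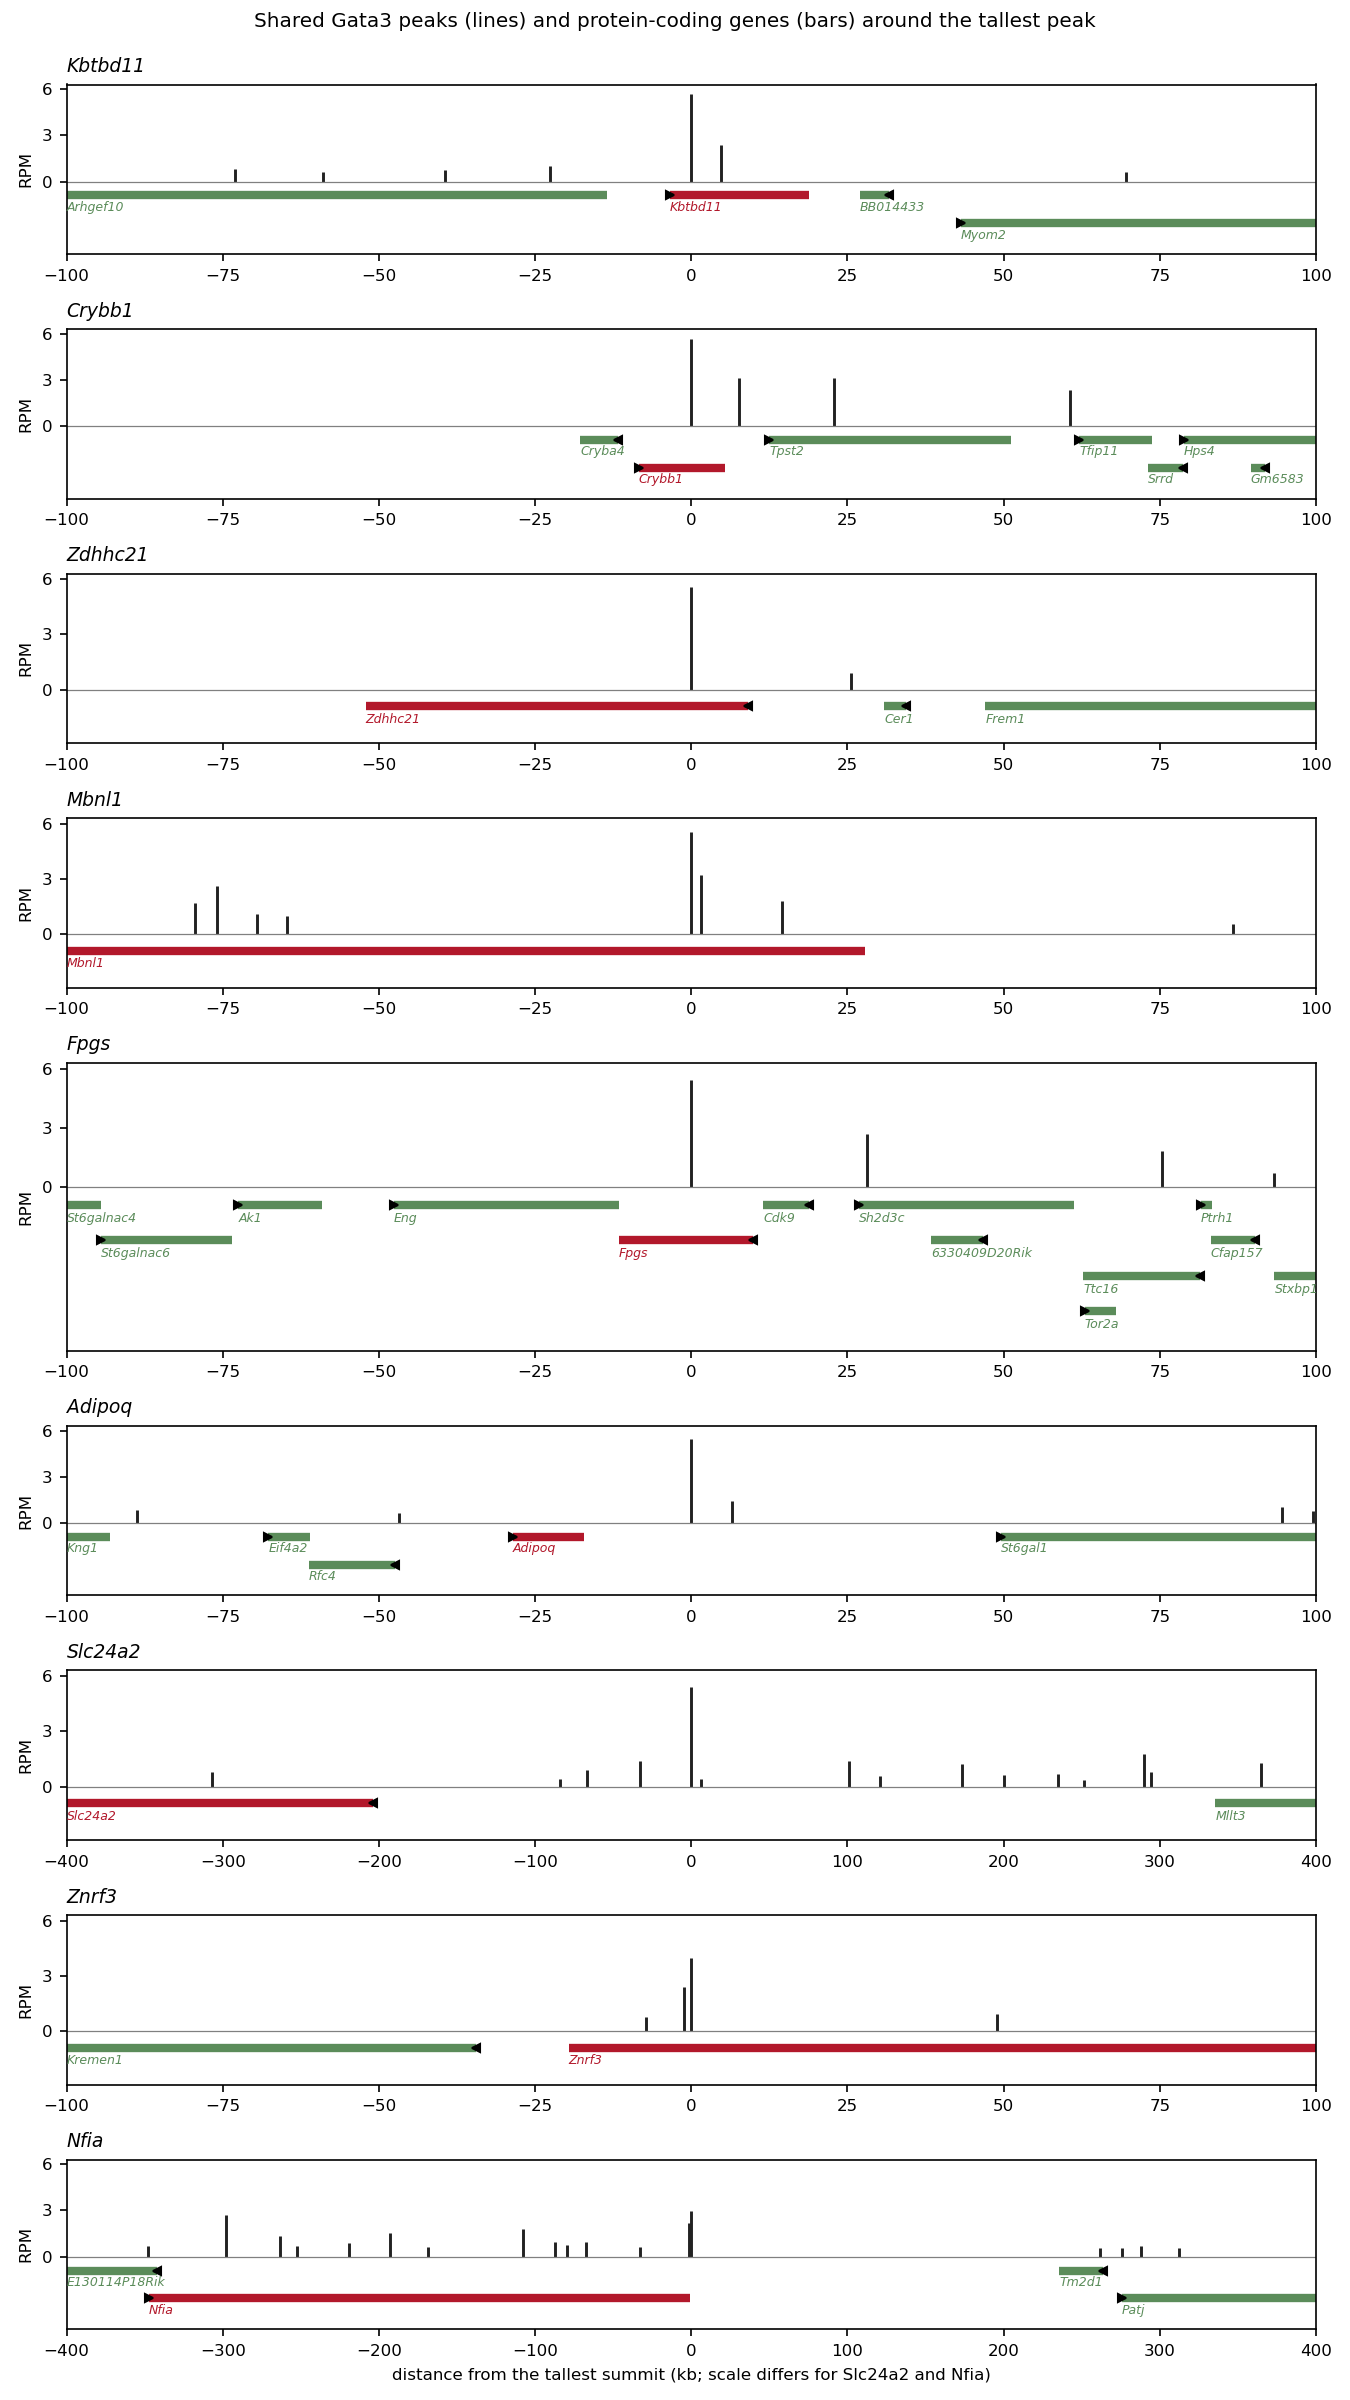
Shared peaks and protein-coding genes around the tallest summit of each region. The horizontal axis is the distance from the summit in kb (100 kb either side, 400 kb for *Slc24a2* and *Nfia*), vertical lines give the height of shared peaks in RPM (the lower of both libraries), bars are genes with the named gene in red and others in green, and arrowheads mark the start and direction of gene models; *Tpst2* and *Sh2d3c* hold tall peaks of their own, while the summits of *Zdhhc21* and *Fpgs* lie 9.11 and 9.89 kb inside the gene models.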

How the data were processed

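The authors prepared libraries by ChIPmentation, in which a transposase cuts immunoprecipitated chromatin and adds the sequencing adaptors, mapped them as single reads with Bowtie2 (version 2.3.5.1, build GRCm38) and removed reads without a unique position. The submitters' processing notes also name MACS2 (version 2.1.2), but peak lists were not used here. The authors deposited 1 line per read with its position, strand and a mapping quality score, which runs from 22 to 44 and is no measure of binding. The default end-to-end mode of Bowtie2 does not give scores as high as the highest of these, so the settings of the alignment are uncertain. In each library 0 reads shared a 5′ end and strand, which shows that duplicates were taken out, by a tool not given in the sources used here. The instrument in the read names differs between the libraries, so library and run cannot be told apart. On chromosomes 1 to 19, X and Y, 40504814 and 24959052 reads gave 2.97 and 1.83 reads per 200-bp window, and sites with no shared peak may still be bound. Without an input library, a shared peak may also lie at a site that is not bound.

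Reads, moved 100 bp in the 3′ direction, were counted in 200-bp windows with a step of 50 bp. An exact Poisson test (one-sided) set the reads of a window against the highest of the library, 5-kb and 10-kb means. Windows with a q of 0.01 or less (Benjamini-Hochberg, over all windows with a read) were kept, and windows within 100 bp were joined. This gave 71726 peaks in library 1 and 28204 in library 2, and peaks overlapping by at least 1 bp were shared. RPM are reads in a window scaled to library size, each library at its own summit. Introns were numbered in the transcript with the most exons among those that span the summit. Distances run to the nearest annotated start site of GENCODE M21, alternative transcripts included, and motifs were exact letter matches on either strand, of which the GATA and reversed GATA letters can overlap.

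The genes, marker lists and motifs were chosen with earlier results of these data known. The text names the 9 genes, those with the nearest start sites, those within 100 kb (500 kb for *Slc24a2*) with a shared promoter peak, and the genes at the ranks next to the tallest. The marker gene *Hbb-b1* is not in the annotation under that symbol. Alternatives were stricter thresholds, other windows, a mapping quality of at least 30, thinning, each library alone, and other flanks, promoters, motif letters and gene sets. Computations used Python 3.11.15, NumPy 2.4.6, SciPy 1.17.1, pysam 0.24.0 and Matplotlib 3.10.9.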

Additional observations from a re-analysis of the deposited data

How the results depend on the processing

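For all 9 genes the tallest peak was shared at a q of 1e-10, with other windows, a mapping quality of at least 30, closer summits and thinning. It was also called in each library alone. A 5-fold minimum over the local background, which includes the reads of the peak itself, left 4. With a q of 1e-10 the 64 shared peaks of the regions fell to 26, the 7 neighbours with a promoter peak to 3 and the 15613 genes with a shared peak in their region to 6752. The 5-fold minimum left 18 shared peaks, 1 of the 4 genes with a promoter peak, 3 neighbours and 8427 genes. Promoters of 1 kb left 2 neighbours. Each library alone gave 77 to 143 peaks, 10 to 14 neighbours and a median height of 5.43 to 6.01 RPM over the 9 genes, the higher value from library 2. AGATAA as the only GATA sequence left 2 of 8 summits with a match. Counting noncoding genes left 5 of the 8 genes as the nearest. The median fold of the tallest peaks, 4.94 by the lower library, was 15.2 over the ring from 1 to 5 kb. Other windows, mapping quality, thinning, flanks and summit distances kept these counts within 1.5 times. The other flanks, of 20 and 100 kb, were applied to *Slc24a2* too and left out its tall peak.

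No paired analysis was possible because both libraries belong to the same group. With 2 libraries, no input and duplicates removed, heights near the top cannot be ranked beyond counting error, and the number of weak peaks depends on the threshold.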
